A study of Caenorhabditis elegans with 4 samples.

Results

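Of the 37812 gene rows deposited for Caenorhabditis elegans early embryos, 66 carry the name of an acyl-CoA synthetase (acs, 20 rows), acyl-CoA dehydrogenase (acdh, 12), enoyl-CoA hydratase (ech, 8), acyltransferase-like (acl, 13) or aldehyde dehydrogenase (alh, 13) gene. A row is a member where its name is the family prefix, a hyphen and a whole number, so the members were selected on their names alone. The 5 families themselves were chosen by their earlier results in these data (FPKM values and calls between the same groups), so the counts and values below describe them and are no independent support. RNA was compared between embryos under RNAi against sig-7 (2 libraries, labelled as loss of sig-7) and embryos under the empty RNAi vector L4440 as control (2 libraries). All 4 libraries came from the wild-type strain N2 and from mixed embryos of 1 to 350 cells, taken from adults fed for 72 h after L1 synchronization. The sources used here state neither how RNAi was delivered nor whether replicate libraries were grown as separate cultures, so the spread behind the q-values may be technical. sig-7 encodes an RNA-binding nuclear cyclophilin linked to elongation by RNA polymerase II.

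A fatty acid is used or built into lipid only after an acyl-CoA synthetase has joined it to coenzyme A. In beta-oxidation the acyl-CoA then loses hydrogen to an acyl-CoA dehydrogenase (in mitochondria) or an acyl-CoA oxidase (in peroxisomes), gains water from an enoyl-CoA hydratase, is oxidized again and is split by a thiolase. In C. elegans the peroxisomal route also shortens the side chains of ascaroside pheromones. The acl family does not oxidize fat: its enzymes place acyl groups on glycerol phosphate and lysophospholipids. Many alh enzymes oxidize aldehydes from amino acid, folate or propionate metabolism and few act on fatty aldehydes.

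Each value is an FPKM (fragments per kilobase of transcript, scaled to the mapped fragments) that the authors pooled over the 2 libraries of a group, so no value has a spread of its own, and the depth of each library is unknown. Replicate error enters only through the q-value of the authors' deposited table, and "rose" and "fell" are used of genes whose q was under 0.05. The target was lower: sig-7 was at 8.72 FPKM in sig-7 RNAi, against 39.8 FPKM in control RNAi (q listed as 0 in the authors' deposited table). The sum of FPKM over all rows was 1.69-fold higher in sig-7 RNAi, which is 0.75 on the log2 scale. A fall in FPKM cannot turn under scaling to equal totals, but a small rise can. Under that scaling 84.3% of all tested genes are lower in sig-7 RNAi, against 51.4% as deposited. Embryo identity was checked with marker lists, to be read beside all 10703 tested genes, of which 17.3% fell and 11.2% rose. All 10 maternal early-embryo genes were tested, with summed levels of 967.2 FPKM in sig-7 RNAi and 760.5 FPKM in control RNAi, and 1 fell and 1 rose. The largest part of both sums was pos-1, at 411.9 FPKM in sig-7 RNAi and 274.2 FPKM in control RNAi. The uncalled pos-1, oma-2 and pie-1 lie at loci shared by 288, 288 and 34 rows, where few genes were called, as given below. The 10 early zygotic genes were tested too. Of these 4 fell (ceh-51, elt-1, pha-4 and end-1) and med-2 rose, with sums of 77.9 FPKM in sig-7 RNAi and 132.2 FPKM in control RNAi. tbx-37 and tbx-38, at a locus shared by 286 rows, were among those that did not pass. Whether the mixed-stage pools match in stage was not tested. Among adult carry-over genes the vitellogenin genes, made in the adult intestine, did not exceed 0.159 FPKM. rme-2, the oocyte yolk receptor gene, was at 14.97 FPKM in sig-7 RNAi and 11.1 FPKM in control RNAi and did not pass. None of 30 sperm msp genes exceeded 0.412 FPKM in either group. Among epidermal markers 7 of 8 tested fell, with sums of 99.85 FPKM in sig-7 RNAi and 630.7 FPKM in control RNAi. The highest control levels in these sums were those of noah-2, noah-1, sqt-3 and dpy-17, from 98.8 to 215.7 FPKM. lin-26, at 30.5 FPKM in sig-7 RNAi and 35.5 FPKM in control RNAi, did not pass. elt-1 is counted both here and among the early zygotic genes. Of 7 tested intestinal markers 4 fell, with sums of 9.38 FPKM in sig-7 RNAi and 34.8 FPKM in control RNAi. All 7 were lower in FPKM. The uncalled ges-1 and act-5 lie at loci shared by 141 and 172 rows, and few genes at such loci were called, as given below. elt-7, also uncalled, lies alone at its locus. It was at 5.62 FPKM in sig-7 RNAi and 11.1 FPKM in control RNAi (q = 0.0916 in the authors' deposited table). Fewer cells of a type and less RNA per cell cannot be told apart in whole embryos, and the part of these tissue differences in the family results was not tested.

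The acyl-CoA synthetase and aldehyde dehydrogenase families held most of the falls, while the acyl-CoA dehydrogenase family held none. Of the 66 members 55 were tested by the authors. Among these 17 fell, which is 30.9%, beside 17.3% of all 10703 tested genes, and 3 rose, which is 5.45%, beside 11.2% of all tested genes. By family, 8 of 17 tested acs genes fell and 1 rose, 0 of 8 acdh genes fell and 1 rose, and 1 of 6 ech genes fell and 1 rose. Falls numbered 3 of 12 among acl genes and 5 of 12 among alh genes, with 0 rises in both. The families hold few genes, and no test of the difference between families was run. With both groups scaled to equal total FPKM the 17 falls could not turn, and the 3 rises kept their direction. The log2 ratios of the rises then shrink, to 0.06 for acs-11, 0.52 for acdh-3 and 1.42 for ech-1. As deposited these ratios were 0.81, 1.27 and 2.17, and the q-values were not recomputed.

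**Figure D1:**
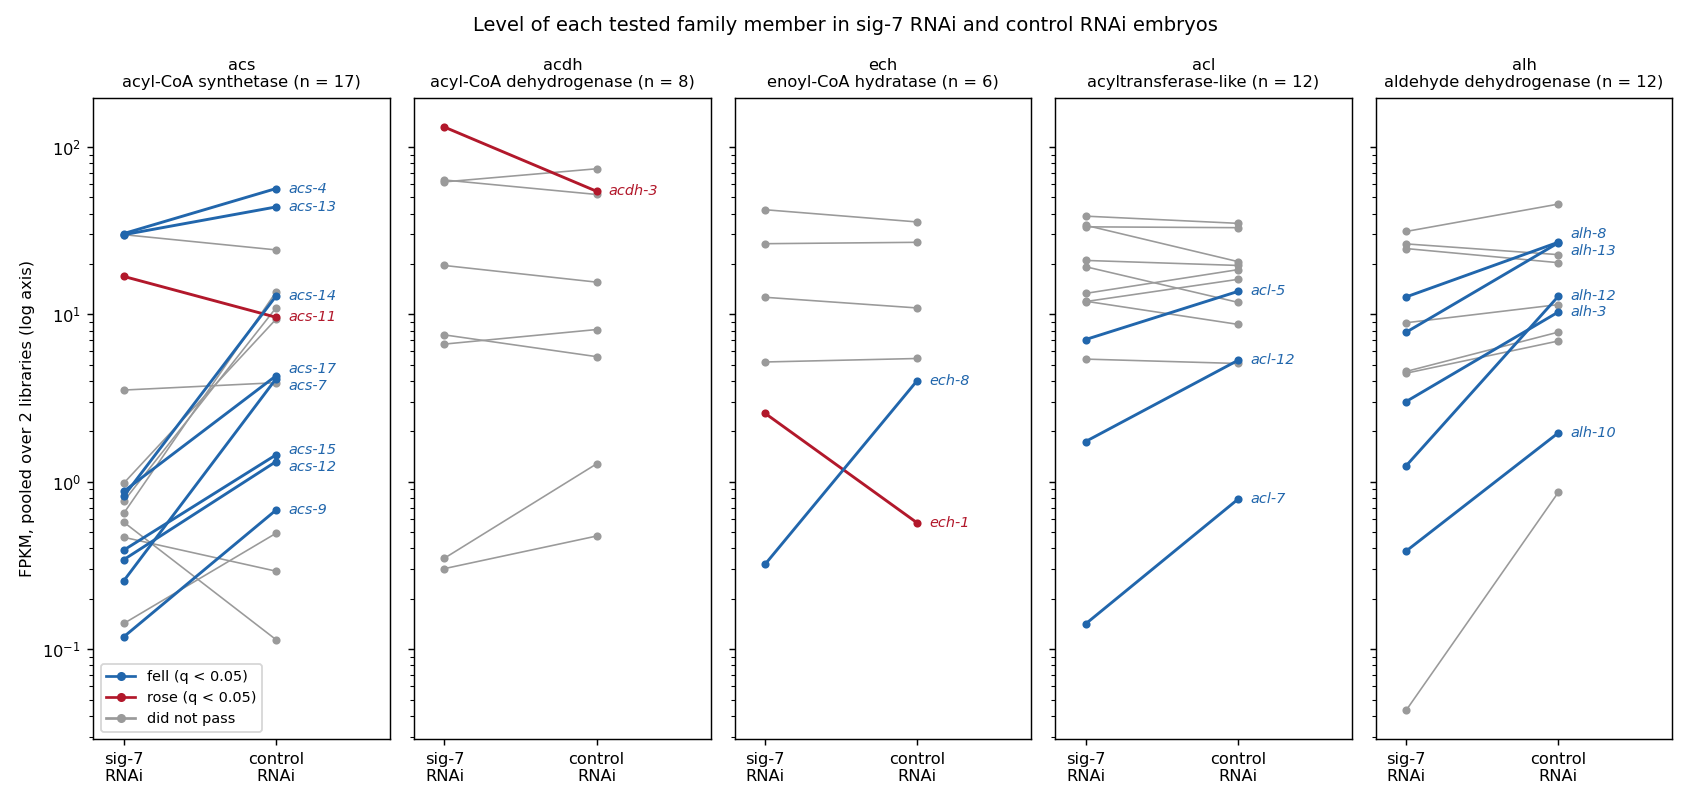
FPKM of each of the 55 tested members (log axis), with sig-7 RNAi left and control RNAi right in each panel and a line joining the pair of pooled values of a gene. Blue genes fell and red genes rose by the authors' deposited q, and grey genes did not pass; the acs panel holds 8 blue lines and the acdh panel holds none.

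Medians of the log2 ratio, taken after adding 1 FPKM to each value, divided the families the same way. This scale understates the change of low genes. The median was -0.79 for acs and -0.75 for alh, against 0.05 for acdh, 0.08 for ech and 0.04 for acl. The median over all 55 tested members was -0.39, and that over all 10703 tested genes was -0.03. The acdh, ech and acl medians turn below 0 under equal total FPKM, as does most of the genome, whose median is then -0.55. The summed FPKM of the tested acs genes was 117.0 in sig-7 RNAi and 197.4 in control RNAi, and that of the alh genes 125.5 in sig-7 RNAi and 194.5 in control RNAi. For acdh the sums were 291.0 in sig-7 RNAi and 211.4 in control RNAi, a difference carried mostly by acdh-3.

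**Figure D2:**
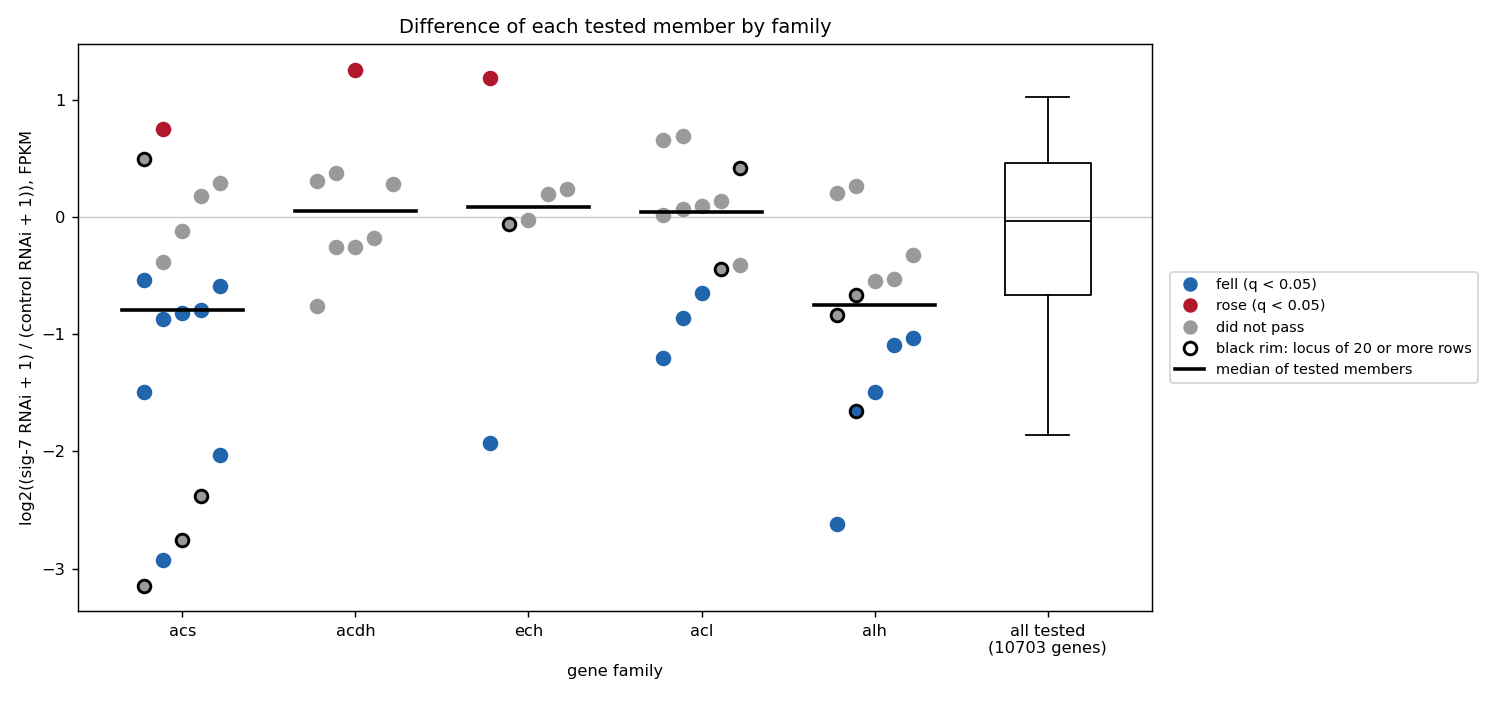
Log2 of sig-7 RNAi over control RNAi, with 1 FPKM added to each value, for every tested member by family, beside all 10703 tested genes (box: quartiles and median, whiskers: 5th to 95th percentile). Thick bars are family medians, -0.79 for acs and -0.75 for alh against values of 0.04 to 0.08 for the other families, and a black rim marks a gene whose deposited locus is shared by 20 or more rows.

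Among the acyl-CoA synthetase genes, the falls ranged from a loss of most of the transcript to modest reductions of the most abundant members. acs-7, which activates ascaroside side chains, was at 0.257 FPKM in sig-7 RNAi and 4.12 FPKM in control RNAi, 16.1-fold lower and the largest fall called in the 5 families. acs-14 was at 0.822 FPKM in sig-7 RNAi and 12.8 FPKM in control RNAi, 15.6-fold lower. acs-17 was at 0.878 FPKM in sig-7 RNAi and 4.29 FPKM in control RNAi, 4.89-fold lower. These 3 genes were all below 1 FPKM after the knockdown. The q-values in the authors' deposited table were 8.91e-11 for acs-7, listed as 0 for acs-14 and 6.01e-09 for acs-17. A q listed as 0 lies below 1.37e-14, the smallest value above 0 in that table. The deposited locus of acs-17 covers 4080 bp of an annotated 7005 bp, so its value may stand for part of the gene.

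3 further synthetase genes fell from low control levels. acs-9 was at 0.119 FPKM in sig-7 RNAi and 0.678 FPKM in control RNAi (q = 0.0188 in the authors' deposited table). acs-12 was at 0.343 FPKM in sig-7 RNAi and 1.32 FPKM in control RNAi, and acs-15 at 0.391 FPKM in sig-7 RNAi and 1.45 FPKM in control RNAi. Their folds lay between 3.70 and 5.71, and all 3 genes were under 0.4 FPKM in sig-7 RNAi. The pair with the highest levels fell least. acs-4 was at 30.4 FPKM in sig-7 RNAi and 56.4 FPKM in control RNAi, 1.86-fold lower (q = 0.0003545 in the authors' deposited table). acs-13 was at 29.9 FPKM in sig-7 RNAi and 43.8 FPKM in control RNAi, 1.46-fold lower, with a q of 0.0425 in the authors' deposited table that is close to the threshold. The acs-13 locus also holds the row Y65B4BL.10 and covers 4917 bp of an annotated 8603 bp.

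acs-11 was the synthetase gene that rose, at 16.8 FPKM in sig-7 RNAi and 9.61 FPKM in control RNAi, 1.753-fold higher (q = 0.0116 in the authors' deposited table), a difference that nearly vanishes under equal total FPKM. acs-19, an acetyl-CoA synthetase gene, was at 29.9 FPKM in sig-7 RNAi and 24.3 FPKM in control RNAi and did not pass. After the knockdown acs-4, acs-13 and acs-19 therefore had nearly equal levels per length, each with 25.6% to 26.0% of the summed family FPKM. In control RNAi the same 3 genes held 28.6%, 22.2% and 12.3% of that sum. acs-2, the fasting-induced mitochondrial synthetase gene, was low in both groups, with 0.143 FPKM in sig-7 RNAi and 0.493 FPKM in control RNAi (q = 0.0605 in the authors' deposited table). acs-20, a fatty acid transport protein homologue needed for the cuticle barrier, was at 3.53 FPKM in sig-7 RNAi and 3.91 FPKM in control RNAi and did not pass. acs-21, at 0.466 FPKM in sig-7 RNAi and 0.293 FPKM in control RNAi, did not pass either.

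In the acyl-CoA dehydrogenase family 1 gene rose and the other tested genes did not pass. acdh-3 was at 131.3 FPKM in sig-7 RNAi and 54.3 FPKM in control RNAi, 2.42-fold higher (q = 9.51e-08 in the authors' deposited table), and had the highest level of all members after the knockdown. It lies on chromosome I, 6464300 to 6465709 on ce10, a deposited locus of 1410 bp for a gene annotated over 2747 bp. acdh-7, a medium-chain dehydrogenase gene and the leading member in control embryos, was at 61.8 FPKM in sig-7 RNAi and 74.0 FPKM in control RNAi. acdh-12, the gene of the very-long-chain enzyme, was at 63.4 FPKM in sig-7 RNAi and 52.0 FPKM in control RNAi. The share of acdh-3 in the summed acdh FPKM was 45.1% in sig-7 RNAi and 25.7% in control RNAi. acdh-11, which limits desaturase expression during heat adaptation, was at 19.6 FPKM in sig-7 RNAi and 15.6 FPKM in control RNAi. acdh-9 and acdh-13 stayed between 5.59 and 8.11 FPKM in both groups. acdh-2, at 0.3497 FPKM in sig-7 RNAi and 1.28 FPKM in control RNAi, did not pass (q = 0.0936 in the authors' deposited table), nor did acdh-4, below 0.5 FPKM in both groups. acdh-1, the dehydrogenase gene of the propionate shunt and a known reporter of low vitamin B12, was not tested, with 0.0417 FPKM in sig-7 RNAi and 0.248 FPKM in control RNAi.

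The enoyl-CoA hydratase family split between 1 large fall and 1 rise of a low gene. ech-8, a homologue of the peroxisomal bifunctional enzyme, was at 0.321 FPKM in sig-7 RNAi and 4.02 FPKM in control RNAi, 12.5-fold lower (q = 8.40e-09 in the authors' deposited table). Its neighbour on the same strand of chromosome IV, ech-9, was listed at 0 in both groups and was not tested. ech-1 was at 2.57 FPKM in sig-7 RNAi and 0.568 FPKM in control RNAi, 4.51-fold higher (q = 5.55e-06 in the authors' deposited table). The name ech-1 has since been divided, and the deposited ech-1 locus also holds the noncoding gene C29F3.9, which RefSeq places inside ech-1.1. The other gene of the old name, ech-1.2, encodes the alpha subunit of the mitochondrial trifunctional protein and stands in the table as T08B2.7. It was at 88.8 FPKM in sig-7 RNAi and 81.1 FPKM in control RNAi and did not pass, so the low member of this gene pair rose and the abundant one did not pass.

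The abundant hydratase genes moved little. ech-6, the mitochondrial short-chain hydratase gene, was at 42.2 FPKM in sig-7 RNAi and 35.6 FPKM in control RNAi. ech-4 was at 26.4 FPKM in sig-7 RNAi and 26.9 FPKM in control RNAi, and ech-2 at 12.6 FPKM in sig-7 RNAi and 10.9 FPKM in control RNAi. None of these passed, and each differed by less than 1.2-fold. ech-2 has 2 deposited isoforms, and neither passed at the isoform level.

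In the acyltransferase-like family 3 genes fell and none rose, and acl-2 and acl-3, higher in FPKM, did not pass. Under equal total FPKM both turn lower, with log2 ratios of -0.03 for acl-2 and -0.05 for acl-3. acl-12 was at 1.74 FPKM in sig-7 RNAi and 5.30 FPKM in control RNAi, 3.05-fold lower (q = 0.000194 in the authors' deposited table). acl-7, the peroxisomal acyltransferase gene of ether lipid synthesis, was at 0.142 FPKM in sig-7 RNAi and 0.785 FPKM in control RNAi, 5.54-fold lower (q = 0.0030 in the authors' deposited table). acl-5, a glycerol phosphate acyltransferase gene of the endoplasmic reticulum, was at 7.07 FPKM in sig-7 RNAi and 13.7 FPKM in control RNAi, 1.94-fold lower (q = 0.00338 in the authors' deposited table). The mitochondrial counterpart acl-6 was at 20.99 FPKM in sig-7 RNAi and 19.6 FPKM in control RNAi and did not pass.

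acl-3, the tafazzin homologue that remodels cardiolipin, was at 19.2 FPKM in sig-7 RNAi and 11.8 FPKM in control RNAi (q = 0.0522 in the authors' deposited table). acl-2, a lysophosphatidic acid acyltransferase gene, was at 34.0 FPKM in sig-7 RNAi and 20.7 FPKM in control RNAi (q = 0.0779 in the authors' deposited table). Its relative acl-1 was at 5.404 FPKM in sig-7 RNAi and 5.09 FPKM in control RNAi, lower than acl-2 in both groups. The deposited locus of acl-2 covers 782 bp of an annotated 2943 bp, so its value may stand for part of the gene and the levels may not compare. The adjacent genes acl-8 and acl-9, both phosphatidylinositol acyltransferase genes on the same strand of chromosome V, did not pass. acl-8 was at 11.9 FPKM in sig-7 RNAi and 16.2 FPKM in control RNAi, while acl-9 was at 38.6 FPKM in sig-7 RNAi and 35.0 FPKM in control RNAi. acl-14 had 33.3 FPKM in sig-7 RNAi and 32.9 FPKM in control RNAi, and neither of its 2 deposited isoforms passed. How the authors divided reads between close paralogues is not stated, so values of such pairs may share reads.

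Of 12 tested aldehyde dehydrogenase genes 5 fell and 0 rose, beside 17.3% and 11.2% of all tested genes. alh-12, a homologue of the betaine aldehyde dehydrogenase, was at 1.25 FPKM in sig-7 RNAi and 12.8 FPKM in control RNAi, 10.3-fold lower (q listed as 0 in the authors' deposited table). alh-10 was at 0.386 FPKM in sig-7 RNAi and 1.96 FPKM in control RNAi, 5.08-fold lower. alh-3, a formyltetrahydrofolate dehydrogenase gene of folate metabolism, was at 3.02 FPKM in sig-7 RNAi and 10.3 FPKM in control RNAi, 3.43-fold lower. Both passed with small q-values in the authors' deposited table, 0.000106 for alh-10 and 8.30e-10 for alh-3. alh-13, a proline synthesis gene, was at 7.82 FPKM in sig-7 RNAi and 26.7 FPKM in control RNAi, 3.42-fold lower (q = 0.0293 in the authors' deposited table). Neither of its 2 deposited isoforms passed on its own. alh-8, the methylmalonate semialdehyde dehydrogenase gene of valine and propionate breakdown, was at 12.7 FPKM in sig-7 RNAi and 26.96 FPKM in control RNAi, 2.12-fold lower (q = 0.0139 in the authors' deposited table). Its deposited locus covers 603 bp of an annotated 2144 bp.

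alh-4 and alh-1, which act on fatty or simple aldehydes, did not pass. alh-4, a fatty aldehyde dehydrogenase gene, was at 26.3 FPKM in sig-7 RNAi and 22.7 FPKM in control RNAi. alh-1, the homologue of the mitochondrial acetaldehyde enzyme, was at 24.7 FPKM in sig-7 RNAi and 20.3 FPKM in control RNAi. Both turn lower under equal total FPKM. alh-9, the most abundant alh gene, was at 31.3 FPKM in sig-7 RNAi and 45.5 FPKM in control RNAi and lay just outside the threshold (q = 0.0506 in the authors' deposited table), where acs-13 lay just inside it. alh-7 and alh-11 were lower in FPKM by 1.28-fold and 1.56-fold and did not pass.

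The tested members that differed by at least 4-fold without being called all sat at crowded loci. The deposited table gives some genes 1 merged locus of up to 970242 bp that is shared by many rows, and 10 of the 55 tested members lie at a locus of 20 or more rows. acs-3, whose loss alters fat uptake, was at 0.650 FPKM in sig-7 RNAi and 13.6 FPKM in control RNAi, a 20.9-fold difference with q = 0.212 in the authors' deposited table. acs-22, the FATP4 homologue, was at 0.767 FPKM in sig-7 RNAi and 10.9 FPKM in control RNAi (q = 0.590 in the authors' deposited table). acs-5 was at 0.982 FPKM in sig-7 RNAi and 9.35 FPKM in control RNAi (q = 0.789 in the authors' deposited table). These 3 synthetase genes had folds and control levels like those of acs-14, which lies alone at its locus and was called. alh-5, at the same merged locus as acs-3 with 276 rows, was at 0.0432 FPKM in sig-7 RNAi and 0.865 FPKM in control RNAi (q = 0.941 in the authors' deposited table).

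Over the whole table uncalled large falls were found at loci of both kinds, but their share differed. Among tested genes at least 4-fold lower in sig-7 RNAi, 875 of 1464 were called at loci of fewer than 20 rows (59.8%), and 9 of 316 at loci of 20 or more rows (2.85%). Of the members at least 4-fold lower, 8 of 8 fell at the less crowded loci and 0 of 4 at the crowded ones. Over all tested genes, the share that fell was 21.4% at the less crowded loci and 1.16% at the crowded ones, and the share that rose was 14% and 0.0926%. The 1 member that fell at a crowded locus was alh-13, whose locus holds 25 rows. The other crowded members were acs-16, acl-4, acl-11, alh-6 and ech-3. acs-16 was at 0.573 FPKM in sig-7 RNAi and 0.114 FPKM in control RNAi, and the remaining 4 differed by 1.05-fold to 1.72-fold. The cause of the high q-values at such loci was not tested. A member at a crowded locus that did not pass is thus not shown to be unaltered.

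**Figure D3:**
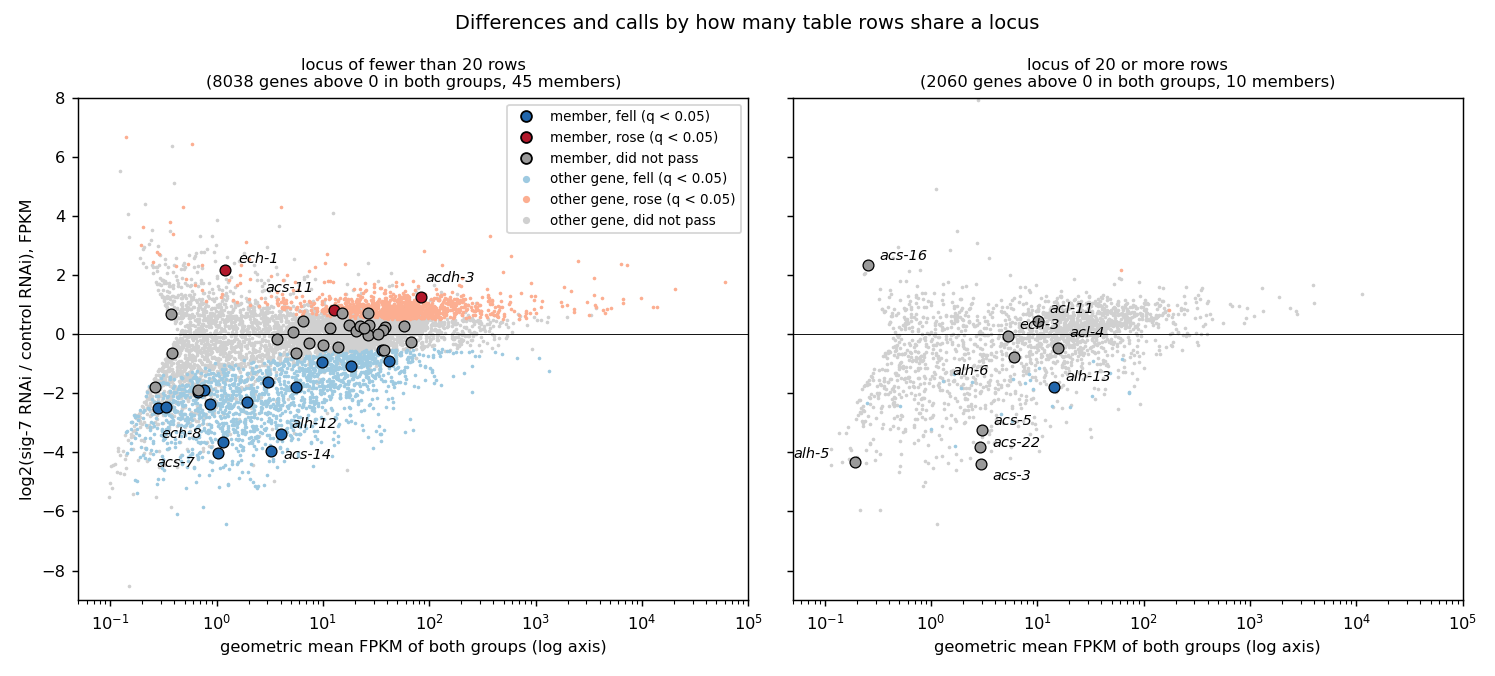
Log2 of sig-7 RNAi over control RNAi against the geometric mean FPKM of both groups (log axis) for tested genes above 0 in both groups, divided by whether fewer than 20 (left) or at least 20 (right) table rows share the deposited locus. Large points are the 45 and 10 tested members; acs-3, acs-5, acs-22 and alh-5 at right lie as low as called genes at left and did not pass.

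Without the members at crowded loci, 8 of 13 acs genes fell, 0 of 8 acdh, 1 of 5 ech, 3 of 10 acl and 4 of 9 alh genes. The background at these loci is 21.4% for falls and 14% for rises. The family medians were then -0.58 for acs, 0.05 for acdh, 0.20 for ech, 0.04 for acl and -0.54 for alh.

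X linkage went with more falls in the families and in the genome. Of 10 X-linked members, all tested, 6 fell and 0 rose, beside 34.4% of all tested X-linked genes that fell and 3.9% that rose. They were acs-9, acs-17, acl-5, acl-12, alh-10 and alh-13. Of 45 tested autosomal members 11 fell and 3 rose, beside 14.5% and 12.3% of tested autosomal genes. Without X-linked members 1 of 8 acl genes and 3 of 10 alh genes fell, so most acl calls were X-linked. In the acs family 6 of the 8 falls were autosomal.

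Calls were also counted by level. Among members with a mean over both groups of at least 10 FPKM, 5 of 26 fell and 2 rose, beside 11.6% and 20.1% of all tested genes at that level. Below 10 FPKM, 12 of 29 fell and 1 rose, beside 23.2% and 1.87%. That mean includes the sig-7 RNAi value, so a fall itself moves a gene under 10 FPKM. Divided by control RNAi level alone, a split chosen after seeing the data, 8 of 29 members at 10 FPKM or more fell and 1 rose, beside 15% and 18.6% of all tested genes. Among those under 10 FPKM in control RNAi, 9 of 26 fell and 2 rose, beside 19.8% and 2.98%, so most of the separation of falls by level was not seen with this split. In sig-7 RNAi 18 of the 55 tested members were below 1 FPKM, beside 26.15% of all tested genes. In control RNAi 8 of the 55 were below 1 FPKM, beside 17.01% of all tested genes. Of the 18 members below 1 FPKM in sig-7 RNAi, 12 were acs genes. The members that fell had a median of 0.878 FPKM in sig-7 RNAi and 5.30 FPKM in control RNAi. Those that did not pass had a median of 11.9 FPKM in sig-7 RNAi and 11.4 FPKM in control RNAi. Gene length differed little, with a median annotated span of 3178 bp for the 17 that fell and 2898 bp for the 35 that did not pass, and a median mature transcript of 1759 bp and 1756 bp.

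The 11 members that were not tested were all at or below 0.248 FPKM in both groups. They were acs-6, acs-10, acs-18, acdh-1, acdh-5, acdh-6, acdh-8, ech-7, ech-9, acl-13 and alh-2. ech-9, acl-13 and alh-2 were listed at 0 in both groups, acdh-6 and ech-7 at 0 in sig-7 RNAi, and acs-18 at 0 in control RNAi. 2 further family genes share a row with another name and are not members. The row of acs-1, the synthetase gene of monomethyl branched-chain fatty acids, which also names a 21U RNA, was at 0.169 FPKM in sig-7 RNAi and 1.23 FPKM in control RNAi and was called lower (q = 0.000811 in the authors' deposited table). For the acs-1 isoforms that share a transcription start site, the authors marked the same FPKM values as low data, without a call. The single acs-1 isoforms above 0 FPKM were marked so too, and they differed in opposite directions. The row of ech-5 was at 17.2 FPKM in sig-7 RNAi and 10.9 FPKM in control RNAi and did not pass.

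Other steps of fatty acid use, described from 7 lists, held more falls than rises. Of 51 tested genes in these lists 16 fell and 4 rose, beside 17.3% and 11.2% of all tested genes. Of 4 tested carnitine palmitoyltransferase genes, which serve the transfer of acyl groups into mitochondria, 3 fell. cpt-4 was at 0.401 FPKM in sig-7 RNAi and 5.84 FPKM in control RNAi, cpt-6 at 13.5 FPKM in sig-7 RNAi and 35.7 FPKM in control RNAi, and cpt-1 at 75.4 FPKM in sig-7 RNAi and 125.4 FPKM in control RNAi. All 4 tested acyl-CoA oxidase genes of the peroxisome fell, by 2.99-fold (acox-3) to 9.001-fold (acox-1.6), and 3 more were not tested. Of the called genes acox-1.2 was below 1 FPKM in both groups, at 0.128 FPKM in sig-7 RNAi and 0.851 FPKM in control RNAi.

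In the list of hydratase, dehydrogenase and thiolase steps 4 of 11 tested genes fell and 1 rose. dhs-28, maoc-1 and daf-22, which carry out the successive peroxisomal steps after the oxidases, were 9.77-fold, 9.58-fold and 7.81-fold lower. dhs-28 was at 2.64 FPKM in sig-7 RNAi and 25.8 FPKM in control RNAi. The remaining fall was T02G5.4, annotated as a pseudogene, and the rise was T02G5.7, at 61.0 FPKM in sig-7 RNAi and 33.2 FPKM in control RNAi. The mitochondrial genes hadb-1 and kat-1 did not pass.

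Of 4 tested genes listed for electron transfer 2 rose and 0 fell. let-721, the gene of the oxidoreductase that takes electrons from acyl-CoA dehydrogenases to ubiquinone, was at 87.5 FPKM in sig-7 RNAi and 58.4 FPKM in control RNAi. The other was R05G6.7, which encodes the mitochondrial porin and not an electron carrier, at 203.5 FPKM in sig-7 RNAi and 138.5 FPKM in control RNAi. Of 7 propionyl-CoA and shunt genes 1 rose, the carboxylase subunit gene pccb-1, at 173.9 FPKM in sig-7 RNAi and 103.7 FPKM in control RNAi. These rises are 1.47-fold to 1.68-fold, smaller than the 1.69-fold difference in total FPKM, so each turns lower under equal total FPKM.

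Of 11 tested acyl-CoA and fatty acid binding genes 2 fell, lbp-1 at 127.4 FPKM in sig-7 RNAi and 498.8 FPKM in control RNAi and acbp-3 at 2.82 FPKM in sig-7 RNAi and 14.7 FPKM in control RNAi. Another 7 of the 11 lie at loci of 20 or more rows and did not pass. Of 10 tested fat regulators 3 fell and 0 rose. The Mediator subunit gene mdt-15, a coactivator of lipid genes, was at 8.35 FPKM in sig-7 RNAi and 34.9 FPKM in control RNAi. The nuclear receptor gene nhr-25 was 5.39-fold and nhr-68, a regulator of propionate metabolism, 3.98-fold lower. nhr-49, which drives acs-2 on fasting, was at 20.04 FPKM in sig-7 RNAi and 25.4 FPKM in control RNAi and did not pass.

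**Figure D4:**
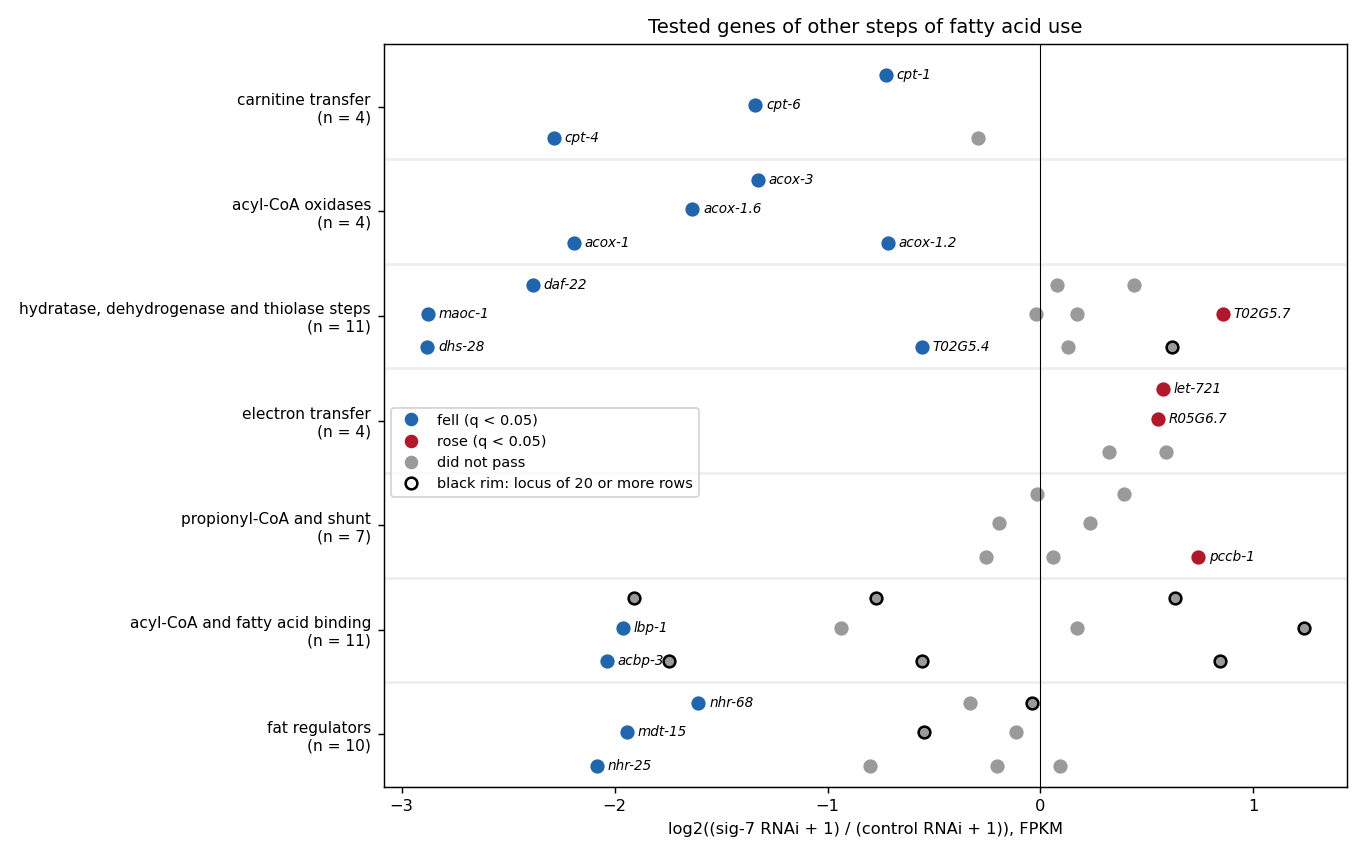
Log2 of sig-7 RNAi over control RNAi, with 1 FPKM added to each value, for the 51 tested genes of 7 lists of other steps of fatty acid use. Blue genes fell and red genes rose by the authors' deposited q, grey genes did not pass, and a black rim marks a locus of 20 or more rows; the peroxisomal dhs-28, maoc-1 and daf-22 stand at the far left.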

How the data were processed

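The authors deposited Cuffdiff tables of genes, isoforms and TSS groups (isoforms that share a transcription start site). Per the submitters' processing notes, the build was ce10 and the tools were TopHat2, Cufflinks 2.1.1 and Cuffdiff 2.0.2; the sources used here state no parameters, annotation or strand setting. Per the file headers, each row holds 1 FPKM value per group, the log2 ratio, a test statistic (a score) and a p-value with its q-value. Because the deposited FPKM is pooled, no spread, interval or detection floor can be given and no test was run here. Members were matched by name in the gene table (Python 3.11.15, pandas 2.3.3). A call is q under 0.05 in the authors' table. Folds are ratios of the deposited FPKM values, and medians use a pseudocount of 1 FPKM. Calls, their counts and log2 ratios were tested on simulated data, while medians were not. Members and lists were chosen with earlier results of these data known. Named genes are all called members, the 3 highest by mean in each family, neighbours, members listed at 0 and, per companion list, at most 4 called genes; others were named after their values were seen. Spans, classes and neighbours came from the WBcel235 annotation by name (65 of 66 members), with no WBcel235 coordinate printed. Loci start at base 0 in the files and are given from base 1. In 14 members, 4 of them called, the deposited locus covers under 0.667 of the annotated span, so the value may stand for part of the gene. The uncalled ones are acdh-1, acdh-2, acdh-12, acdh-13, acl-2, acl-8, alh-1, alh-7, alh-9 and alh-11. Values were recomputed at q under 0.01, with a floor of 1 FPKM, equal total FPKM, other tables, and without X-linked or crowded members.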

Additional observations from a re-analysis of the deposited data

How the results depend on the processing

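No paired analysis was possible because the deposited columns are pooled over the libraries of a group and carry no replicate number, and leaving out a library was not run for the same reason. Without X-linked members 11 of 45 tested members fell, beside 14.5% of tested autosomal genes, against 17 of 55 with them. By family, 5 of 11 tested acs genes fell with a floor of 1 FPKM, against 8 of 17 without it. Without X-linked members 1 of 8 acl and 3 of 10 alh genes fell, against 3 of 12 and 5 of 12 with them. At q under 0.01, 3 of 12 alh genes fell. Shares over all tested genes were not counted for the floor or for q under 0.01. The rise of acs-11 was lost at q under 0.01 (0 acs rises), and leaving out shared or overlong loci removed that of ech-1 (0 ech rises). The median log2 ratio over all members, -0.39, was -0.26 with a floor of 1 FPKM, -0.86 under equal total FPKM, -0.18 without X-linked members and -0.26 without crowded loci, a setting chosen after seeing the data. The median of all tested genes was 0.09, -0.55, 0.06 and -0.04 under these settings. Under equal total FPKM the medians of acdh, ech and acl turned to -0.43, -0.58 and -0.66. The acs median, -0.79, was -1.66 with a pseudocount of 0.1 and -1.496 with a floor of 1 FPKM, and the acdh median, 0.05, was 0.30 with that floor and 0.28 without X-linked members. Of the 20 called members, 15 passed q under 0.01, 20 passed in the TSS group table and 19 in the isoform table, where alh-13 was lost. Each called member has 1 TSS group, and each but alh-13 has 1 isoform. Their FPKM values repeat those of the gene rows, so the agreement between tables was fixed in advance and is no separate check. The cause of these differences was not tested. Pooled values leave the depth behind low members unknown.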
